A study of Homo sapiens with 12 samples.

Results

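The MHC class I antigen presentation machinery was followed through 7 genes, namely B2M, HLA-E, TAP1, TAP2, TAPBP, NLRC5 and ERAP1. Each was looked up by its gene name in the deposited table of normalized values, which names 26231 rows, and where a name stood on several gene IDs the ID with the most counts was used. Of the 7 genes, 4 had a row, 3 of these 4 (B2M, NLRC5 and ERAP1) had counts, and the same 3 passed the filter on low counts and were tested among 11968 genes. HLA-E, TAP1, TAP2 and TAPBP were listed at 0 in all 12 libraries, as were most genes around them, so their zeros are not read as absence of the mRNA.

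Class I molecules display peptides from inside the cell to CD8 T cells, and they consist of a heavy chain, the light chain beta-2-microglobulin and a peptide. Peptides made by the proteasome are carried into the endoplasmic reticulum by the TAP transporter, trimmed there by ERAP aminopeptidases and loaded onto the heavy chain with the help of tapasin, calreticulin and ERp57. NLRC5 drives transcription of many of these genes together with the RFX complex, and interferons raise them in most cell types.

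RNA came from the ALDH-positive fraction, cells with high aldehyde dehydrogenase activity, of 697 (EU3), a human B-cell precursor leukaemia line. SH2 cells carry a doxycycline-inducible short hairpin RNA against IGF2BP1, an RNA-binding protein, with an eGFP reporter. The SH2 treated group (n = 4, sets 1 to 4) received doxycycline and was sorted once more for the reporter, and the SH2 untreated group (n = 4, the same sets) received none. The control treated group (n = 2, sets 2 and 4) and the control untreated group (n = 2, the same sets) are labelled as controls for doxycycline, and the labels do not say whether they hold a scrambled hairpin. Each set was its own ALDH selection and its own doxycycline treatment. The extra sort was made on treated SH2 cells, so the hairpin, the sort and doxycycline cannot be told apart within SH2 alone.

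The libraries held 2210291 to 3370952 reads in genes, a depth at which 15847 to 17439 gene IDs had a count. IGF2BP1, the targeted gene, stood at 6.28, 14.8, 25.0 and 16.2 CPM (reads per 1000000, on TMM-scaled library sizes) in SH2 treated libraries of sets 1 to 4, against 21.7, 30.5, 39.2 and 32.9 CPM in SH2 untreated libraries. It was lower in 4 of 4 sets, and edgeR's quasi-likelihood test gave a log2 fold change of -0.99 ± 0.43 (SE) with an adjusted p of 0.983. The libraries labelled control had 0 to 3 counts of IGF2BP1, with or without doxycycline, although the labels give them no knockdown. They also stood apart in the immunoglobulin light chain: IGKC took at most 0.154% of the light chain constant region counts in SH2 libraries and 99.7% to 99.9% in the libraries labelled control. They are therefore called libraries labelled control below, and in any difference from SH2 the construct and the cell background cannot be told apart. All 14 B-cell precursor markers had counts in every library, with a summed level of 2429 CPM (SH2 treated, set 4) to 4873 CPM. T-cell genes CD3D, CD3E and CD247 summed to 4.51 to 22.6 CPM in SH2 libraries, and to 366 to 373 CPM in set 2 and 26.0 to 32.1 CPM in set 4 of those labelled control. The SH2 treated library of set 4 stood apart as well, at -80.5 on the second principal component (17.1% of the variance), against -23.4 to 53.7 for the other 11. Results are given with and without these libraries, and their part in the results was not tested beyond that.

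Genes within the MHC of chromosome 6 were almost unread in these tables. Coordinates are GENCODE version 29 on GRCh38. HLA-E (ENSG00000204592, chr6:30489467-30494205, plus strand) encodes a non-classical heavy chain that NK cells read through NKG2A. TAP1 (ENSG00000168394, chr6:32845209-32853978, minus strand) and TAP2 (ENSG00000204267, chr6:32821833-32838780, minus strand) are the subunits of the peptide transporter. TAPBP (ENSG00000231925, chr6:33299694-33314387, minus strand) encodes tapasin, the bridge between transporter and heavy chain. None of these 4 IDs had a single read in any of the 12 libraries, and the row named TAPBP carries another ID, ENSG00000206281, also at 0.

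The zeros ran through the whole interval. Between the start of HLA-F and the end of TAPBP (chr6:29722775-33314387), 128 of 148 protein-coding genes (86.5%) were at 0 in all 12 libraries. On the rest of chromosome 6 the count was 209 of 885 (23.6%), and over all protein-coding genes outside the interval 4458 of 19509 (22.9%). Genes that nearly every cell uses were among them, such as BAG6, DDX39B and BRD2, chosen as examples after their values were seen. The tables list 64253 gene IDs, of which 56591 are in the primary GENCODE version 29 annotation, and the heavy chains were counted mainly on IDs outside it. Not-unique alignments made up 42.2% (SH2 treated, set 4) to 63.8% (control untreated, set 2) of all counts and summary lines in the tables. A read may be counted there more than once, so this is not a share of reads. Whether those alignments held the missing genes was not tested, so HLA-E, TAP1, TAP2 and TAPBP carry no information on expression here.

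**Figure D1:**
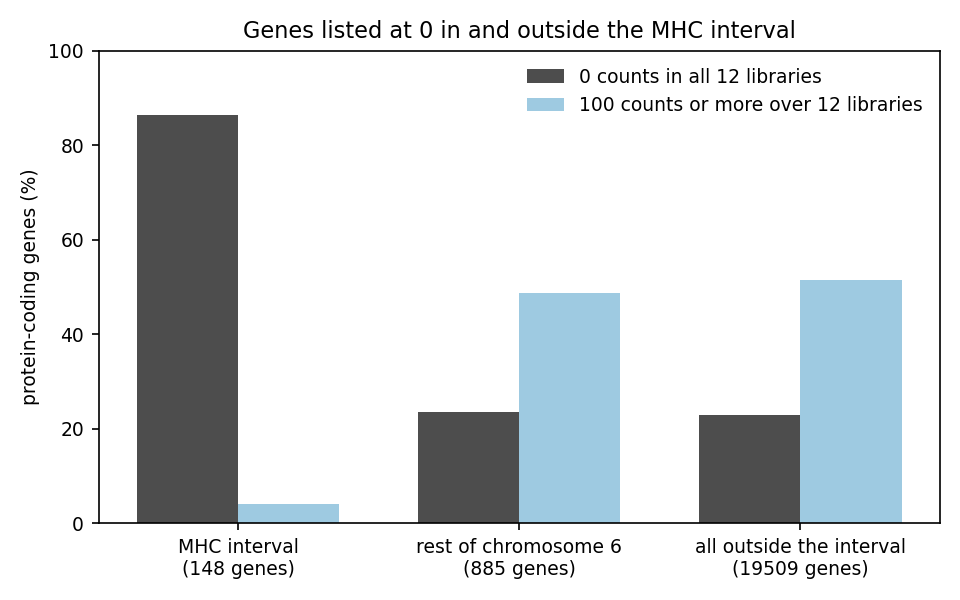
Share of protein-coding genes with 0 counts in all 12 libraries (dark bars) and with 100 counts or more over the 12 libraries (light bars), in percent, for the MHC interval of chromosome 6, the rest of chromosome 6 and all genes outside the interval. In the interval 86.5% of 148 genes were at 0 and 4.05% reached 100 counts, whereas outside it 22.9% were at 0 and 51.4% reached 100 counts.

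Promoter letters are shown because the class I genes share regulatory motifs whose factors were measured in the same libraries. RefSeq promoters (GRCh38.p14, windows of 300 bases around the start site, most of each upstream) were found for 5 of the 7 genes, B2M, ERAP1, TAP1, TAP2 and TAPBP. The motifs searched on both strands were the interferon-stimulated response element (ISRE, GAAA, any 2 bases, GAAA), the gamma-activated site (GAS, TTC, any 3 bases, GAA), the NF-kB site (GGGA, any base, TTTCC), the cyclic AMP response element (CRE, TGACGTCA), the CRE core (TGACG, which also lies within the full CRE) and the Y box (CCAAT). Capitals in the windows of B2M, ERAP1 and TAP1 (first start site) mark the matched letters.
B2M, chr15:44711267-44711566, plus strand: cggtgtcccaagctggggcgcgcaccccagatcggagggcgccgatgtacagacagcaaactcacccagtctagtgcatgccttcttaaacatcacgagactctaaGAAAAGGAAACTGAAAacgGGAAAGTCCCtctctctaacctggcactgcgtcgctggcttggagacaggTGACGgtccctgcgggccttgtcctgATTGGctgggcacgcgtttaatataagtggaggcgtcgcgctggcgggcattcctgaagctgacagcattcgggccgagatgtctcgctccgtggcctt
ERAP1, chr5:96807896-96808195, minus strand: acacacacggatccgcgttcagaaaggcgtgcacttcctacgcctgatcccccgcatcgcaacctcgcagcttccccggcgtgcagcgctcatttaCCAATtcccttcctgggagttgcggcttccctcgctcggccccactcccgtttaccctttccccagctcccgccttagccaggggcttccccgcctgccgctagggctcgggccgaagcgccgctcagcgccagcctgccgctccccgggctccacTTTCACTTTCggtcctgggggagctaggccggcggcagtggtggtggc
TAP1, chr6:32853655-32853954, minus strand: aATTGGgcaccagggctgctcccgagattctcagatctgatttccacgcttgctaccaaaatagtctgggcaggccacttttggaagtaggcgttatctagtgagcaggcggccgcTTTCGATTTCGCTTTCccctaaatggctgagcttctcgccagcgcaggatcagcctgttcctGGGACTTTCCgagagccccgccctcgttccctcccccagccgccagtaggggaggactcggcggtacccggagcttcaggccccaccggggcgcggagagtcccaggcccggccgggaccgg

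All 5 genes had at least 1 ISRE match, a letter pattern held by 3.57% of 35116 RefSeq promoters. In B2M 2 overlapping matches begin at -144 and -138, and in TAP1 2 begin at -134 and -128, on the opposite strand. The TAP2 match begins at -58, those of TAPBP at -20 and -14, and that of ERAP1 at 3, just past the start site. NF-kB letters (0.558% of promoters) were found in B2M at -125 and in TAP1 at -72. The CRE core (24.6% of promoters) was in B2M at -75 and in TAP2 at -35, and the Y box (34.6%) in B2M at -49, ERAP1 at -154 and TAP1 at -249. GAS letters (7.66%) were in the second TAP1 window alone, and the full CRE (1.85%) was in none of these windows. A match describes letters and is no evidence that a factor binds.

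**Figure D2:**
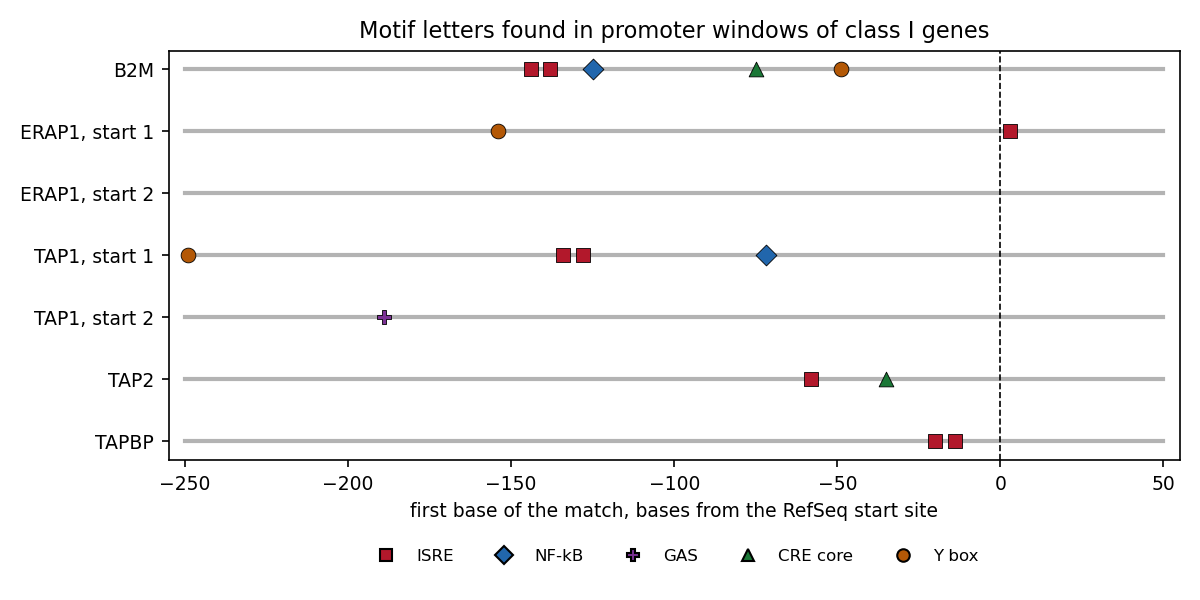
Positions of motif letters in the RefSeq promoter windows of 5 class I genes; the horizontal axis is the distance in bases of the first matched base from the start site (dashed line), and each row is a start site. ISRE matches (squares) lie between -144 and 3 in B2M, the first start sites of ERAP1 and TAP1, TAP2 and TAPBP, and the second ERAP1 window holds no match.

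B2M (ENSG00000166710, chr15:44711487-44718877, plus strand) encodes beta-2-microglobulin, without which class I heavy chains do not reach the cell surface. Its mRNA stood at 159, 147, 49.7 and 11.8 CPM in SH2 treated libraries of sets 1 to 4, against 104.5, 54.0, 95.9 and 55.2 CPM in SH2 untreated libraries. The libraries labelled control had 196 and 72.2 CPM when treated and 131 and 91.1 CPM when untreated (sets 2 and 4). SH2 treated libraries thus held both the 2 highest and the 2 lowest SH2 levels, and the groups overlapped. Set by set, treated minus untreated on the log2 CPM scale was 0.60, 1.43, -0.94 and -2.16 in SH2 cells and 0.57 and -0.33 in sets 2 and 4 of those labelled control.

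B2M therefore moved in opposite directions between sets of the same treatment, higher in sets 1 and 2 and lower in sets 3 and 4 of SH2. The treated mean was 91.7 ± 72.2 CPM and the untreated mean 77.4 ± 26.6 CPM in SH2 (SD, n = 4 each). The lowest value, SH2 treated of set 4, rests on 35 reads, with an exact Poisson 95% interval of 8.21 to 16.4 CPM that covers counting error only and does not reach the next SH2 level of 49.7 CPM. A second gene ID named B2M, ENSG00000273686, took 0% to 4.53% of the B2M reads and did not change this order.

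NLRC5 (ENSG00000140853, chr16:56989485-57083531, plus strand) is the transactivator of class I genes. Its levels in sets 1 to 4 were 88.4, 61.1, 42.8 and 23.6 CPM in SH2 treated libraries, against 75.0, 53.1, 35.0 and 49.5 CPM in SH2 untreated libraries. Libraries labelled control had 64.1 and 111.9 CPM treated, against 57.4 and 93.3 CPM untreated. The 5 pairs other than set 4 of SH2 were slightly higher with doxycycline, by 0.16 to 0.29 on the log2 scale, and set 4 of SH2 was lower by 1.05 (log2 change -1.05). The spread between sets 1 to 3 of SH2 treated cells, 42.8 to 88.4 CPM, was wider than the change within any of them, and the groups overlapped.

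ERAP1 (ENSG00000164307, chr5:96760810-96808100, minus strand) trims peptides in the endoplasmic reticulum to the length class I grooves hold. It was measured at 22.2, 13.7, 7.25 and 17.9 CPM in SH2 treated libraries, against 19.3, 10.4, 9.39 and 24.4 CPM in SH2 untreated libraries. Libraries labelled control stood at 15.1 and 22.9 CPM treated, against 13.8 and 26.8 CPM untreated. Unlike B2M and NLRC5, ERAP1 was not lowest in set 4 of SH2 treated cells but in set 3, at 22 reads. Its set changes in SH2 were 0.20, 0.37, -0.34 and -0.44 on the log2 scale. The exact Poisson intervals of the treated and untreated library overlapped in every SH2 set. In set 2 they were 9.57 to 18.9 CPM treated and 7.23 to 14.4 CPM untreated. The signs of these changes are therefore not read as a pattern shared with B2M. ERAP1 shares exon sequence with CAST on the opposite strand, and whether the counting used strand is not given in the sources used here, so its values are uncertain by that overlap.

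**Figure D3:**
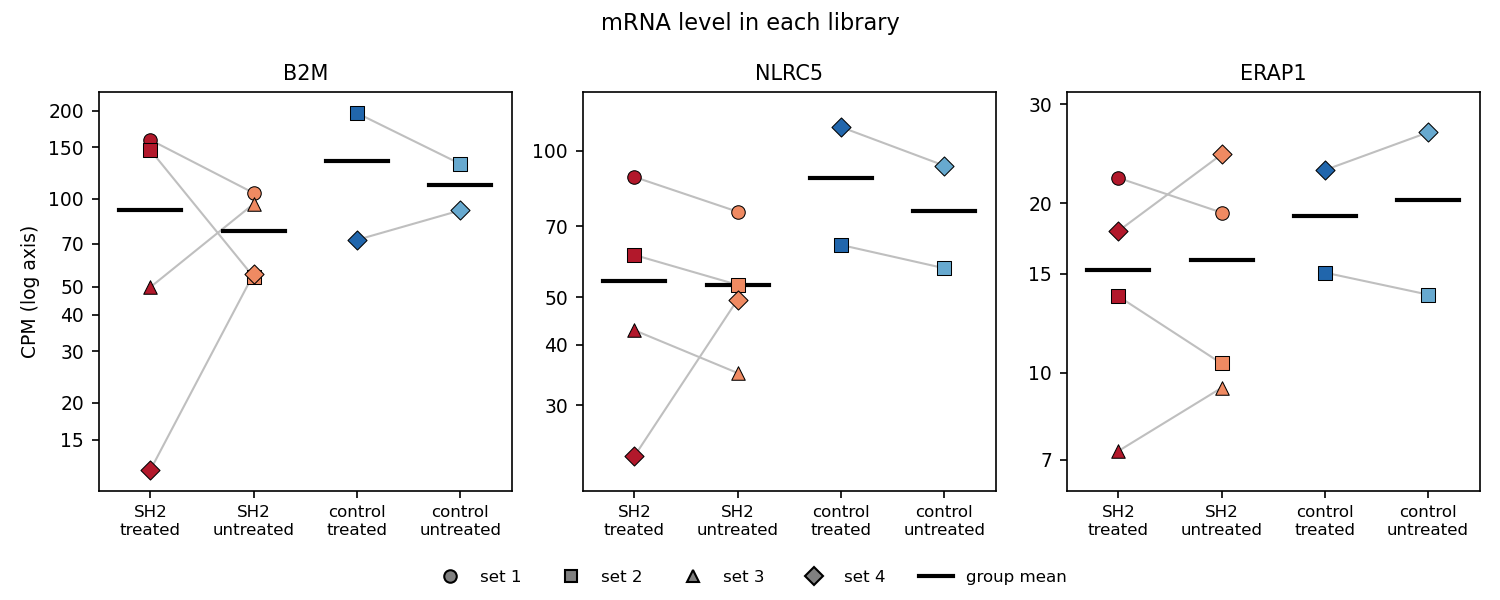
Level of B2M, NLRC5 and ERAP1 in each library, in CPM on log axes, by group; symbols give the set, grey lines join the treated and untreated library of 1 set and black bars are group means. In SH2 treated cells B2M ran from 11.8 to 159 CPM and NLRC5 from 23.6 to 88.4 CPM, both lowest in set 4, and groups overlap for all 3 genes.

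The first comparison asked whether the class I genes differed in SH2 cells with the hairpin induced. None of the 3 measured genes passed an adjusted p of 0.05 between SH2 treated and SH2 untreated cells, where 0.0167% of all tested genes did. B2M had a log2 fold change of 0.24 ± 0.59 (SE, 95% interval -1.02 to 1.50, adjusted p = 0.99). NLRC5 had 0.02 ± 0.37 (interval -0.78 to 0.82, adjusted p = 1). ERAP1 had -0.06 ± 0.41 (interval -0.94 to 0.82, adjusted p = 1). Changes of less than about 2.84-fold up for B2M and 1.77-fold up for NLRC5 and 1.76-fold up for ERAP1 lie inside these intervals, so the test does not show equal levels. Without the SH2 treated library of set 4 the log2 fold changes were 0.61 for B2M, 0.27 for NLRC5 and -0.15 for ERAP1 (adjusted p = 0.99, 0.99 and 1). With the set as a block the B2M value was -0.11, the opposite sign, and it was not called either (adjusted p = 0.969).

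Between control treated and control untreated libraries 0 of 3 genes were called, as were 0% of all tested genes. There 82 genes (0.685%) had an unadjusted p below 0.05 in edgeR, and DESeq2 called 0. The log2 fold changes were 0.27 ± 0.83 for B2M, 0.22 ± 0.52 for NLRC5 and -0.10 ± 0.57 for ERAP1 (SE). The difference of the doxycycline responses, SH2 minus the libraries labelled control, was -0.03 ± 1.01 for B2M, -0.20 ± 0.64 for NLRC5 and 0.04 ± 0.71 for ERAP1 (SE, each adjusted p = 1). With 2 libraries a side its intervals reach from -2.21 to 2.15 for B2M. Here too 0% of all tested genes were called, and 116 (0.969%) had an unadjusted p below 0.05 in edgeR. The shares of 0.685% and 0.969% fall below the 0.05 share expected if no gene differed. They are therefore not read as a response.

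SH2 cells without doxycycline had lower mean levels of all 3 genes than untreated libraries labelled control, and 0 of the 3 were called where 7.84% of all tested genes were. B2M differed by -0.52 ± 0.71 (adjusted p = 0.764), NLRC5 by -0.51 ± 0.45 (adjusted p = 0.608) and ERAP1 by -0.36 ± 0.49 (adjusted p = 0.768) on the log2 scale. In treated cells the same 3 genes were again uncalled, against 11.1% of all tested genes. The log2 differences there were -0.55 ± 0.70 for B2M (adjusted p = 0.68), -0.71 ± 0.44 for NLRC5 (adjusted p = 0.355) and -0.32 ± 0.49 for ERAP1 (adjusted p = 0.742).

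Matched by set number, SH2 stood below the library labelled control in all 4 pairs of each gene, by amounts that varied between sets. These pairs come from sets 2 and 4, each untreated and treated, so they are not 4 independent observations. The share of all tested genes lower in all 4 pairs was not counted. Whether the set number pairs SH2 libraries with those labelled control was not tested. For NLRC5 the log2 differences were -0.11 and -0.90 untreated and -0.07 and -2.21 treated (sets 2 and 4), the larger ones in set 4. For B2M they were -1.27 and -0.72 untreated and -0.42 and -2.54 treated. ERAP1 ran from -0.38 to -0.13. Without both libraries labelled control of set 2, the ones with the highest sum of T-cell genes, B2M had a log2 difference of 0.34 in treated cells, the opposite sign (adjusted p = 0.894). No pair of groups was free of overlap for any of the 3 genes. Of all tested genes, 3.41% did not overlap between SH2 treated and SH2 untreated, 24% between control treated and control untreated, 32.9% between the untreated groups and 32% between the treated groups. Between all 8 SH2 libraries and all 4 labelled control the share was 15.6%.

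**Figure D4:**
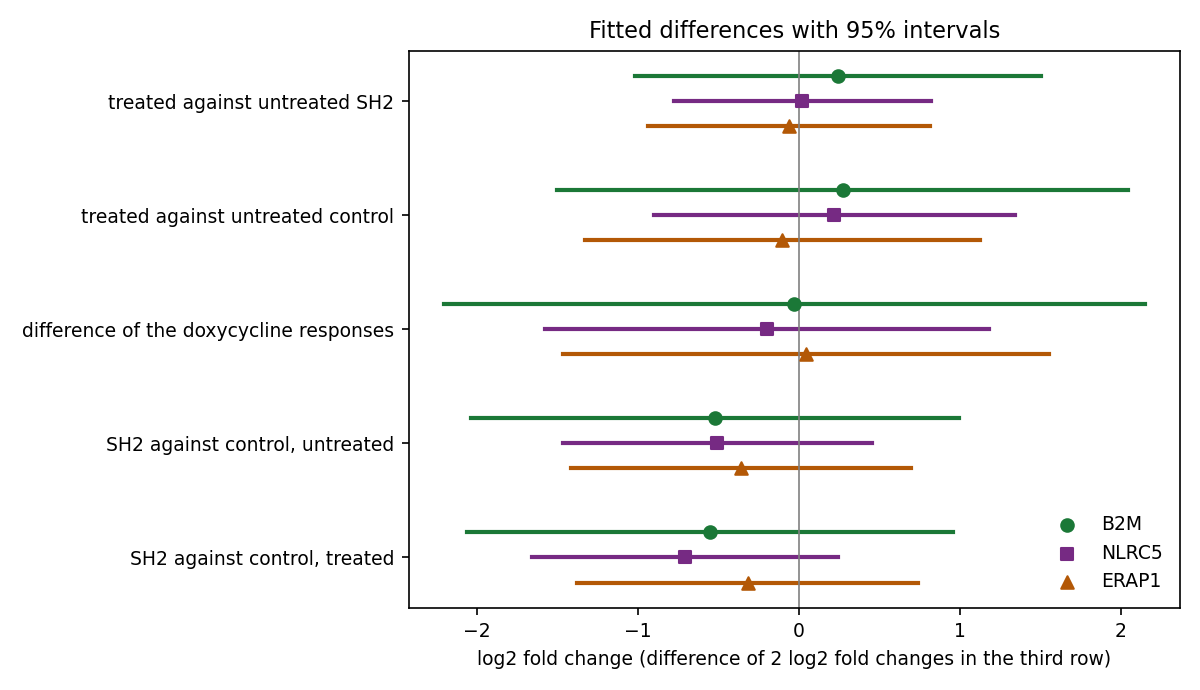
Fitted log2 fold changes of B2M (circles), NLRC5 (squares) and ERAP1 (triangles) with 95% intervals in 5 comparisons; the third row is a difference of 2 log2 fold changes. Every interval contains 0, and the widest, for B2M in the difference of the doxycycline responses, runs from -2.21 to 2.15.

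The classical heavy chains HLA-B and HLA-C, which carry the peptide groove, were read mainly on gene IDs outside the primary annotation, ENSG00000232126 and ENSG00000225691. HLA-F had 13 reads over the 12 libraries and was not tested, and HLA-G was at 0. HLA-C was at 171, 139, 79.4 and 344 CPM in SH2 treated libraries, against 111, 102, 58.0 and 79.7 CPM in SH2 untreated libraries. It was higher with doxycycline in 4 of 4 SH2 sets, though the groups overlapped. Libraries labelled control had 295 and 290 CPM treated, against 280 and 238 CPM untreated (sets 2 and 4). HLA-C was thus higher with doxycycline there too, without overlap, as were 12.3% of tested genes.

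HLA-C was not called in SH2 cells, with a log2 fold change of 1.06 ± 0.37 (SE, unadjusted p = 0.0122, adjusted p = 0.983). Over the alternatives run its log2 fold change stayed between 0.52 and 1.31, and the lowest value came without both SH2 libraries of set 4. With the set as a block the adjusted p was 0.344. The difference of its doxycycline responses between SH2 and the libraries labelled control was not called.

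HLA-B did not follow HLA-C. It stood at 259, 148, 59.6 and 25.3 CPM in SH2 treated libraries, against 225, 122, 44.7 and 91.4 CPM in SH2 untreated libraries. In set 4 of SH2, HLA-B had a log2 change of -1.83 where HLA-C had 2.10. Both heavy chains of 1 library therefore moved apart, while B2M and NLRC5 in that library went down as HLA-B did.

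Between SH2 and the libraries labelled control the heavy chains were compared in both conditions. HLA-B was lower in all 8 SH2 libraries (25.3 to 259 CPM) than in all 4 labelled control (362 to 521 CPM), as were 8.59% of tested genes, with log2 differences of -1.98 ± 0.69 untreated and -1.84 ± 0.69 treated that missed the threshold (adjusted p = 0.105 and 0.107). With the set as a block it was called in both (log2 differences -2.37 and -2.32, adjusted p = 0.0119 and 0.014). HLA-C was lower in untreated SH2 cells (-1.56 ± 0.43, adjusted p = 0.0395), a call lost when either untreated library labelled control or SH2 untreated of set 2, 3 or 4 was left out (adjusted p = 0.0697 to 0.258). In treated cells HLA-C differed by -0.67 ± 0.44 and was not called (adjusted p = 0.371), but without the SH2 treated library of set 4 the log2 difference was -1.17 and was called (adjusted p = 0.0347).

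Genes that load and trim peptides beside the 7 formed a list of 12, of which 11 were tested. In SH2 cells with doxycycline 0 of 11 were called, 4 were positive and 7 negative, and the median log2 fold change was -0.17, against 0.03 over all tested genes. CALR, the calreticulin of the loading complex, was lower with doxycycline in 4 of 4 SH2 sets (log2 changes -0.54, -0.60, -0.37 and -1.06) and in both sets labelled control (-0.43 and -0.47), and it was not called (adjusted p = 0.983 in SH2). PDIA3, which encodes ERp57, had an SH2 log2 fold change of -0.57 ± 0.34 (adjusted p = 0.983).

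ERAP2, the neighbour and partner enzyme of ERAP1, differed between the cells. Its levels ran from 54.3 to 130.0 CPM in SH2 treated and from 55.5 to 107 CPM in SH2 untreated libraries, against 22.5 and 31.4 CPM in control treated and 30.8 and 34.0 CPM in control untreated libraries, with no overlap between the cells, as for 7% of tested genes in that direction. That made it higher in treated SH2 cells by 1.60 ± 0.40 on the log2 scale (adjusted p = 0.0199) and by 1.25 ± 0.40 in untreated cells, where it was not called (adjusted p = 0.0743). The treated call was lost when either library labelled control was left out (adjusted p = 0.0738 without set 2 and 0.197 without set 4). It was 1 of 11 genes of this list called in treated cells, where 11.1% of all tested genes were. In untreated cells 0 of 11 were called, against 7.84% of all tested genes. With the set as a block 4 of 11 were higher in both, CANX, ERAP2, SEC61A1 and HM13. These encode the calnexin chaperone, the trimming enzyme, a translocon channel subunit and the signal peptide peptidase. Over all 11968 tested genes the block called 1505 in untreated and 2171 in treated cells, in either direction.

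Of the immunoproteasome list of 7, the catalytic subunits PSMB8, PSMB9 and PSMB10 did not pass the filter on low counts, and PSMB8 and PSMB9 lie in the unread interval. PSME1, PSME2, PSME3 and POMP, which encode the activator subunits and the assembly factor, were tested. None of the 4 was called in any of the 5 comparisons of the main test. Without both SH2 libraries of set 4, edgeR called PSME3 lower in treated SH2 cells than in treated libraries labelled control (log2 difference -0.84, adjusted p = 0.0383). PSME1 ran from 90.3 to 189 CPM in SH2 treated cells, against 118 to 226 CPM in SH2 untreated cells, with a log2 fold change of -0.33 ± 0.30 (adjusted p = 0.983).

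Regulators of class I promoters were represented by 13 genes, all tested. In SH2 cells 0 of 13 were called with doxycycline, 7 positive and 6 negative. RFX5, the DNA-binding subunit of the RFX complex, was at 45.7, 34.6, 17.1 and 8.76 CPM in SH2 treated libraries, against 34.0, 31.4, 24.6 and 27.5 CPM in SH2 untreated libraries. Its set changes of 0.42, 0.13, -0.51 and -1.57 have the signs of those of B2M in each of the 4 sets, a likeness seen after the values were known. IRF1, an interferon-induced activator of class I, ran from 98.0 to 159 CPM in SH2 treated cells, against 94.3 to 143 CPM in SH2 untreated cells.

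CIITA, the class II relative of NLRC5, was the regulator that differed between the cells. It averaged 12.1 ± 2.91 CPM in SH2 treated and 15.1 ± 4.88 CPM in SH2 untreated libraries (SD, n = 4 each), and 115 ± 23.5 CPM in control treated and 138 ± 7.19 CPM in control untreated libraries (SD, n = 2 each). The log2 differences of SH2 were -3.19 ± 0.33 untreated and -3.25 ± 0.33 treated, and the call held whichever of the 6 libraries of each comparison was left out. CIITA and NLRC5 thus differed in how they separated the cells, since NLRC5 groups overlapped. RFXAP, another RFX subunit, was higher in SH2 by 1.52 ± 0.46 untreated and 1.35 ± 0.46 treated, short of the threshold (adjusted p = 0.0599 and 0.0772) but called with the set as a block (0.012 and 0.0223).

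**Figure D5:**
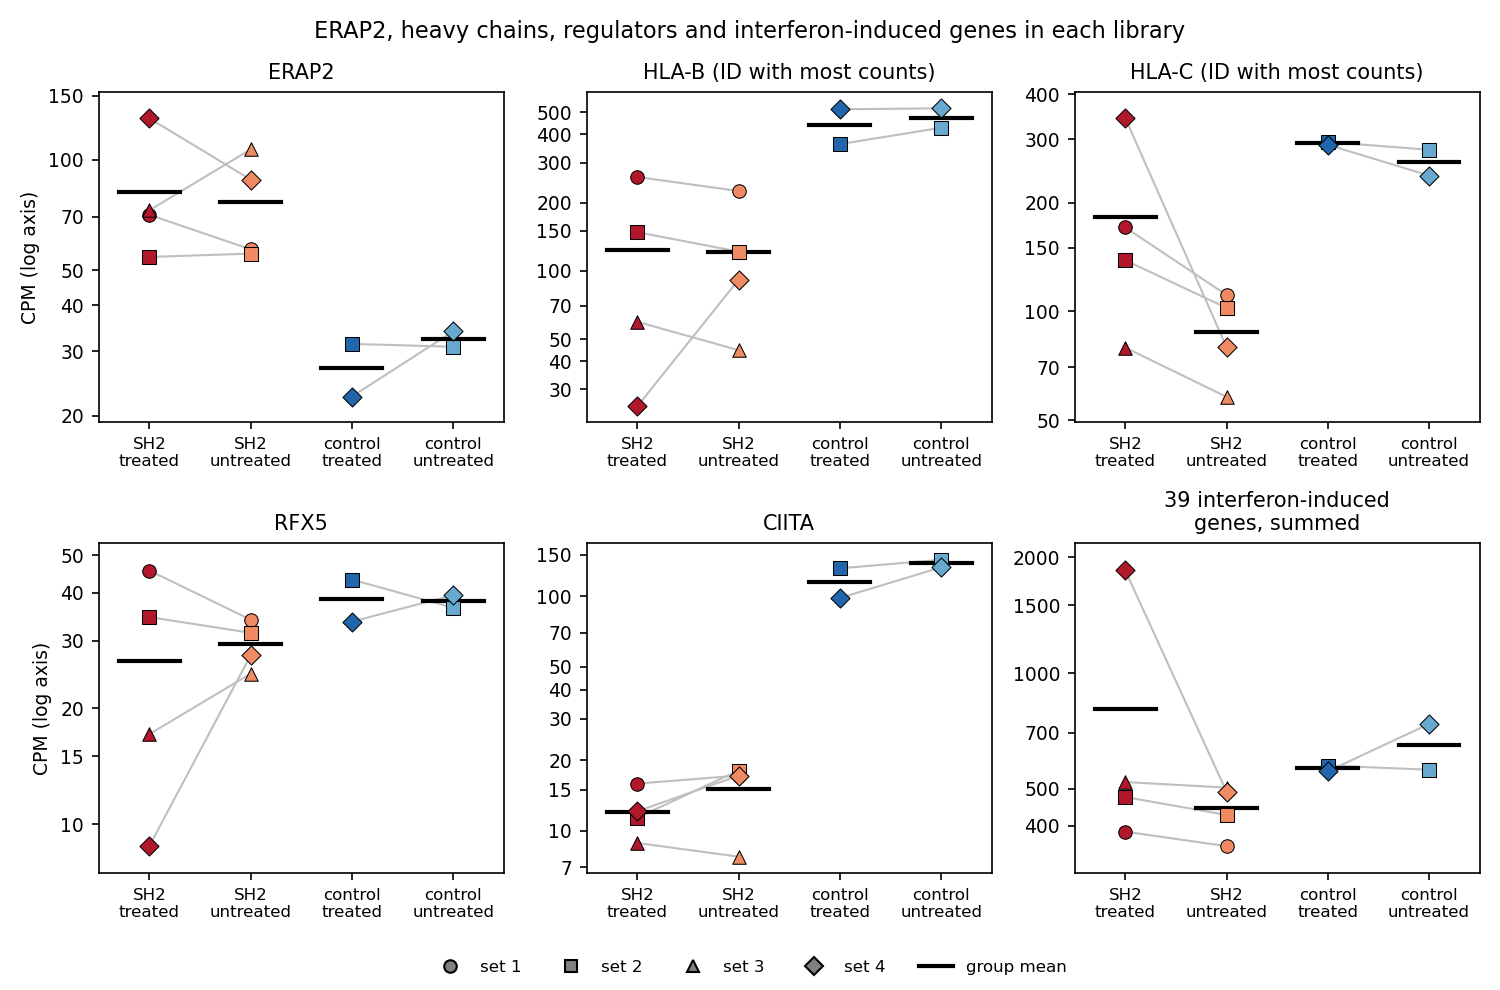
Levels of ERAP2, HLA-B, HLA-C, RFX5 and CIITA and the summed level of 39 interferon-induced genes, in CPM on log axes, by group; symbols give the set, grey lines join libraries of 1 set and black bars are group means. SH2 treated of set 4 has the highest interferon-induced sum (1850 CPM) and the highest HLA-C (344 CPM) but the lowest HLA-B (25.3 CPM) and RFX5 (8.76 CPM).

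Interferon-induced genes outside class I were read as a list of 39, since interferon raises class I genes in many cells. Their summed level was 386, 475, 520 and 1850 CPM in SH2 treated libraries of sets 1 to 4, against 354, 427, 503 and 491 CPM in SH2 untreated libraries. The libraries labelled control stood at 574 and 555 CPM treated, against 560 and 737 CPM untreated. A single library, SH2 treated of set 4, was thus far above all others, with ISG15 at 630.3 CPM there and 31.4 to 57.3 CPM in the other SH2 treated libraries. In the same library B2M (11.8 CPM), NLRC5 (23.6 CPM) and HLA-B (25.3 CPM) were each the lowest of all 12, and HLA-C (344 CPM) was the highest of all 12.

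Over the list, 0 of 28 tested genes were called in SH2 cells with doxycycline, while 23 were positive (52.8% of all tested genes were) and the median log2 fold change was 0.63. Without a filter on low counts 5 were called higher, IFI44L, IFI6, MX1, ISG15 and EPSTI1, all of them highest in set 4 of SH2 treated cells. With the filter kept, 0 of 28 were called without that library, as with it. No fit without the filter left that library out, so its part in these 5 calls was not tested. The 11 tested genes of interferon receptors and signalling had positive values in all 11 cases with a median of 0.18, and 0 were called.

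Between the cells, the interferon lists held calls in both directions. MX2 was higher in SH2, by 2.81 ± 0.58 untreated (adjusted p = 0.00825) and 3.27 ± 0.59 treated (adjusted p = 0.00292), and the receptor gene IFNAR1 was higher by 0.96 ± 0.27 and 1.20 ± 0.27 (adjusted p = 0.045 and 0.0113). BST2, EPSTI1 and the feedback inhibitor SOCS1 were lower in untreated SH2 cells (log2 differences -1.66, -4.12 and -1.62), and IFITM1 was higher in treated SH2 cells. In untreated cells the calls of IFNAR1 and EPSTI1 were lost whichever of the 6 libraries was left out (adjusted p = 0.0622 to 0.375 and 0.0675 to 0.215), that of SOCS1 in 5 of 6 cases (0.0595 to 0.256), and those of MX2 and BST2 without either library labelled control (0.057 to 0.103). In treated cells IFNAR1 was lost in 2 of 6 cases (0.0912 to 0.094) and IFITM1 in 3 of 6 (0.0705 to 0.17), each time including either library labelled control, and MX2 in 0. With only the groups compared, IFNAR1, IFITM1 and ERAP2 were not called in treated cells (adjusted p = 0.0514 to 0.0675), and without a filter on low counts IFNAR1 was not called in untreated cells (adjusted p = 0.121). With the set as a block EPSTI1 was not called in untreated cells (log2 difference -3.34, adjusted p = 0.16). EPSTI1 and BST2 were called lower in treated cells without both SH2 libraries of set 4 (adjusted p = 0.000337 and 0.00892). With the set as a block 5 of 28 were higher in treated SH2 cells (MX2, IFITM1, PARP14, TRIM22 and GBP2), against 2 of 28 without it. Calls over all 11968 tested genes, in either direction, rose as well, from 1326 (11.1%) without the block to 2171 with it. The rise in the list is therefore not read as a result about interferon-induced genes.

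Of 11 ligands and receptors that NK and T cells use around class I, 8 had a row and 1, ULBP1, a stress-induced ligand of NKG2D, had enough counts to be tested. MICA and MICB, other such ligands, are genes of the unread MHC interval, so low or missing counts in this list are not read as absence. ULBP1 stood at 0.674 to 1.98 CPM in SH2 treated and 0.302 to 1.64 CPM in SH2 untreated libraries, against 0.764 and 5.77 CPM in control treated and 0.723 and 6.17 CPM in control untreated libraries, and it was called in none of the 5 comparisons.

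The genes whose level over the 12 libraries was most like the mean of B2M, NLRC5 and ERAP1, among the 8552 genes that averaged 3 or more in log2 CPM, were EFCAB2, HLTF, MYADM, ALKBH3 and RBM15B, with Pearson coefficients of 0.942 to 0.922. After the group means were taken away they were FAM134B, SLC22A23, VPREB3, DFNA5 and RAG1, with coefficients of 0.98 to 0.971. These coefficients describe libraries that share sets and cells, and none of the 10 genes is on a class I list. Among the 3 genes the coefficients were 0.643 (B2M and NLRC5), 0.524 (NLRC5 and ERAP1) and 0.0473 (B2M and ERAP1). After the group means were taken away they were 0.574, 0.445 and -0.0799. The mean of the 3 therefore does not stand for a profile that all of them share.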

How the data were processed

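Poly(A) RNA ends were sequenced with a QuantSeq 3' kit, per the labels' protocols, and each sample's table holds whole-number counts of reads per gene ID that the authors made with HTSeq after STAR alignment to hg38 (GRCh38), per the submitters' processing notes. The annotation, the strand setting and tool versions were not stated in the sources used here. A second deposited table holds the authors' normalized signal, counts divided by DESeq2 size factors per the submitters' processing notes; 100% of its nonzero values were whole reads after division by the step (tolerance 0.01), and these equalled the counts. The 5 summary lines of each table, among them not-unique alignments at 42.2% to 63.8%, were left out of library sizes and tests.

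Groups come from the labels. The main test was edgeR 4.0.16 (quasi-likelihood, robust, filterByExpr with a minimum count of 10, TMM) over all 12 libraries with 1 mean per group, in R 4.3.3, with Benjamini-Hochberg adjustment over 11968 genes at 0.05. Levels are CPM on TMM-scaled library sizes, and log2 CPM uses a prior count of 2. The fit was also run on counts simulated from its own fitted dispersions, without set effects or an outlying library. That run cannot show how the fit behaves with the set differences seen here, and its outcome is not reported here. Alternatives were DESeq2 1.42.0, limma 3.58.1 on log2(value + 1), other scaling, no filter, the set as a block, only the groups compared, summed gene IDs, and left-out libraries. The alternatives of leaving out both libraries labelled control of set 2 and of testing the recovered reads were added after seeing the data. Same-numbered SH2 libraries come from the same ALDH selection, per the series' design text, so the set numbers are taken to pair samples. Their deviations from the group means correlated at 0.182 (set 2) to 0.65 (set 1). SH2 treated of set 2 correlated at 0.267 with SH2 untreated of set 1, above its own set, so the correlations do not show the pairing for set 2. The main test has no term for the set, which enters only as an alternative. No pair of libraries in a group agreed within sampling noise (chi-square per degree of freedom 8.39 to 47.7).

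The 7 genes and the gene lists were chosen with earlier results of these data known. Besides the 7, genes named are those of each list past the threshold, up to 4 with the smallest p per comparison, and the 5 most alike in profile; genes named outside that rule were chosen after their values were seen. Intervals cover counting error only where called Poisson. Some genes of the lists are not reported here.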

Additional observations from a re-analysis of the deposited data

Results flagged for a closer look

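Among the class I and interferon lists, 148 combinations of a gene and an SH2 group of 4 were searched for a library far from its group by Dixon's test, which marks about 1 in 20 such groups by chance. It marked 14, and none was B2M, NLRC5 or ERAP1. In 10 of the 14 the library was SH2 treated of set 4, the highest of 4 each time, and 8 of these 10 are interferon-induced genes. IFI44L stood at 73.1 CPM there, IFI6 at 160 CPM, MX1 at 161 CPM and ISG15 at 630.3 CPM. IFIT3 was at 43.8 CPM, USP18 at 13.8 CPM, EPSTI1 at 35.0 CPM and PARP9 at 49.2 CPM. The other 2 were SPPL2A, an intramembrane protease, at 49.5 CPM and the proteasome activator subunit PSME3 at 97.4 CPM. In the same library the 14 B-cell precursor markers had their lowest sum, 2429 CPM, and the share of not-unique alignments was the lowest of the 12 at 42.2%; the part of either was not tested.

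The remaining 4 lay in other libraries. TAPBPL, a tapasin relative, stood at 19.7 CPM in SH2 treated of set 1. JAK2 at 29.3 CPM and ULBP1 at 1.98 CPM were highest in SH2 treated of set 3. CIITA was lowest in SH2 untreated of set 3, at 7.77 CPM.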

How the results depend on the processing

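B2M, NLRC5 and ERAP1 were called in 0 cases of 3 in every comparison under every alternative run. Their log2 fold changes kept their sign in 211 of 255 alternative values and reversed in 44, none of them called. In SH2 cells with doxycycline, the replicate block gave -0.11 for B2M and -0.0015 for NLRC5, limma on the deposited values gave -0.27 and -0.0785, and without both SH2 libraries of set 4 ERAP1 was 0.14. Leaving out 1 library gave -0.16 to 0.61 for B2M, -0.32 to 0.27 for NLRC5 and -0.29 to 0.23 for ERAP1. In the libraries labelled control, B2M was -0.34 without both of set 2, and leaving out 1 library gave -0.62 to 0.82 for B2M, -0.24 to 0.61 for NLRC5 and -0.50 to 0.46 for ERAP1. For the difference of the responses, the replicate block gave -0.0011 for ERAP1. Without both SH2 libraries of set 4 it was 0.21 for B2M and 0.0195 for NLRC5, and without both libraries labelled control of set 2 it was 0.58 for B2M. Leaving out 1 library gave -0.57 to 0.87 for B2M, -0.59 to 0.26 for NLRC5 and -0.52 to 0.44 for ERAP1. In SH2 against the libraries labelled control, ERAP1 untreated ran from -0.75 to 0.20 with 1 library left out. In treated cells B2M ran from -1.10 to 0.34 and ERAP1 from -0.59 to 0.0122, and B2M was 0.34 without both of set 2. The causes were not tested.

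Over all genes, calls in SH2 with doxycycline numbered 2 in the main test, 6 with the replicate block, 47 without a filter on low counts, 14 in DESeq2 and 0 with only the groups compared. The libraries labelled control had 0, and 3 without the filter; the difference of the responses had 0, and 1 to 3 in other settings. SH2 against the libraries labelled control gave 938 untreated (327 to 1505) and 1326 treated (631 to 2171), the highest with the replicate block. The block changed the other calls given beside their genes. Recovered reads gave the same counts. A fit with only the groups compared could not be made for the difference of the responses. Depth limits ERAP1 to 22 to 81 reads a library and B2M to 35 in 1 library.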
